A study of Mus musculus with 2 samples.

Results

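The genes described here are the mouse cytosolic ribosomal protein genes: all symbols that begin with Rpl, Rps or Rplp followed by a number, together with Rpsa, that have at least 1 transcript typed protein_coding. The pattern matched 103 symbols; 11 of them, the Rps6k kinase genes and Rps19bp1, were dropped by the rule, and 7 had no such transcript. This left 85 genes of 55536 gene rows. They comprise 43 genes of the large subunit, 31 of the small subunit, 3 of the acidic stalk and 8 paralogs whose symbols add l, l1 or rt to that of a core gene. The first 3 classes, 77 genes, are called the core genes below.

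RNA was measured in bone marrow-derived macrophages (BMDM) of strain C57BL/6J, primary cells grown from mouse bone marrow, stimulated with 100 ng/ml lipid A, the part of lipopolysaccharide that activates Toll-like receptor signalling, for 50 min. The RNA came from the nucleoplasmic fraction of the cells (labelled nucleus in other fields), was depleted of ribosomal RNA, and was sequenced as total RNA. There was 1 group of 2 libraries labelled as biological replicates. Replicate 1 started from 500 ng of RNA and replicate 2 from 1 µg; age and sex were not collected, and both carry the same donor label, so whether they came from separate animals is not known. No unstimulated library and no other fraction were analysed here, so the values describe 1 state and no difference was tested. Errors are the SD of the 2 replicates.

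Ribosomal proteins assemble with ribosomal RNA in the nucleolus into a small and a large subunit, which join on messenger RNA to make protein. Their mRNAs are among the most abundant in the cytoplasm of growing cells, and most begin with a run of pyrimidines at the cap, the TOP motif, through which the mTOR pathway controls their translation. Many ribosomal protein genes also carry small nucleolar RNAs (snoRNAs), guides for rRNA modification, in their introns, and several proteins of the family limit their own mRNA through unproductive splicing.

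The start regions of the genes were read from RefSeq promoters (GRCm38.p6, 250 bases before to 50 after each annotated start), which matched 65 of the 85 genes. A run was at least 5 C or T, counted from the first C within 10 bases of the annotated start. C or T directly before that C were not counted, as in the Rpl7a window below. Such a run was found in 40 of these 65 genes (61.5%), against 34.4% of all 27025 genes in the table. A run of at least 8 was found in 21 (32.3%), against 8.30%. The following windows run from 40 bases before to 20 bases from the start, on the gene's strand; they show 4 of the longest runs and those of 2 highly ranked small-subunit genes, Rps24 and Rps12, with the run in capitals.
Rpl27a: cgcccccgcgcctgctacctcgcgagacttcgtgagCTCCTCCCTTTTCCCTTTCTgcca
Rpl7a: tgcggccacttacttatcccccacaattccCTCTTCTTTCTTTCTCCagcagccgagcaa
Rpl15: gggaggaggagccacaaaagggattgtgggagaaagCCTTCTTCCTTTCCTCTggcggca
Rpl13a: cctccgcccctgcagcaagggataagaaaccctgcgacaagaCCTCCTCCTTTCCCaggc
Rps24: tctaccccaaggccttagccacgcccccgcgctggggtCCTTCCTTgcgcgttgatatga
Rps12: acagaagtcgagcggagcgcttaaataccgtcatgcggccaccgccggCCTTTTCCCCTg

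These windows lie at chr7:109519155-109519214 (Rpl27a), chr2:26910767-26910826 (Rpl7a), chr14:18270967-18271026 (Rpl15, minus strand), chr7:45128726-45128785 (Rpl13a, minus strand), chr14:24490638-24490697 (Rps24) and chr10:23787190-23787249 (Rps12, minus strand). The run, counted in this way, was 20 bases in Rpl27a and 8 in Rps24. Of the other motifs searched on both strands of the whole promoter window, CCGGAAG, a core letter sequence of ETS-family sites, was present in 26 of 65 genes (40%) against 9.93% of all genes. The letters AAGATGGC, from the binding sequence of YY1, were in 6 genes (9.23% against 3.19%), the E-box CACGTG in 6 (9.23% against 8.09%) and the TATA-box letters TATAAA in 7 (10.8% against 15.7%). A match describes these letters only, and a missing match says only that they are not in this window.

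The libraries held 10342882 expected counts over gene rows in replicate 1 and 20495545 in replicate 2. The ribosomal protein genes took 15934 counts (0.154%, Wilson 95% interval 0.152 to 0.156%) and 43119 counts (0.210%, interval 0.208 to 0.212%); the intervals cover counting error only. The median gene of the family had 159 counts in replicate 1 and 440 in replicate 2. All 7 macrophage markers were at 28.3 TPM (transcripts per 1000000 transcripts, a level per length) or more in both libraries, while 15 of 17 markers of other blood, stromal and endothelial cells were below 1 TPM in both; summed, the macrophage markers gave 3574 and 2978 TPM and the others 5.07 and 3.95 TPM. In the labelled fraction, the nuclear RNA Malat1 was at 32582 and 10080 TPM, and transcripts of the 13 proteins encoded by the mitochondrial genome summed to 76786 and 21710 TPM.

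All core genes were expressed within a narrow band. Of the 85 genes, 81 reached 1 TPM in both libraries, against 38.7% of the 22015 nuclear protein-coding genes. The median over the family was 26.9 TPM in replicate 1 and 25.7 in replicate 2 (26.3 ± 0.820, SD, n = 2). In both libraries 71 of the 77 core genes lay between 10 and 100 TPM. The 6 others, Rpl29, Rps15a, Rpl14, Rpl22, Rps26 and Rpl36a, fell below 10 TPM in at least 1 library. The highest core gene stood 13.9-fold above the lowest in replicate 1 and 9.36-fold in replicate 2. The 90th percentile of the core genes was 4.45 and 4.03 times the 10th, compared with 28.1 and 28.3 times among protein-coding genes of at least 1 TPM. In bulk RNA, fewer expressing cells and less RNA per cell cannot be told apart.

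**Figure D1:**
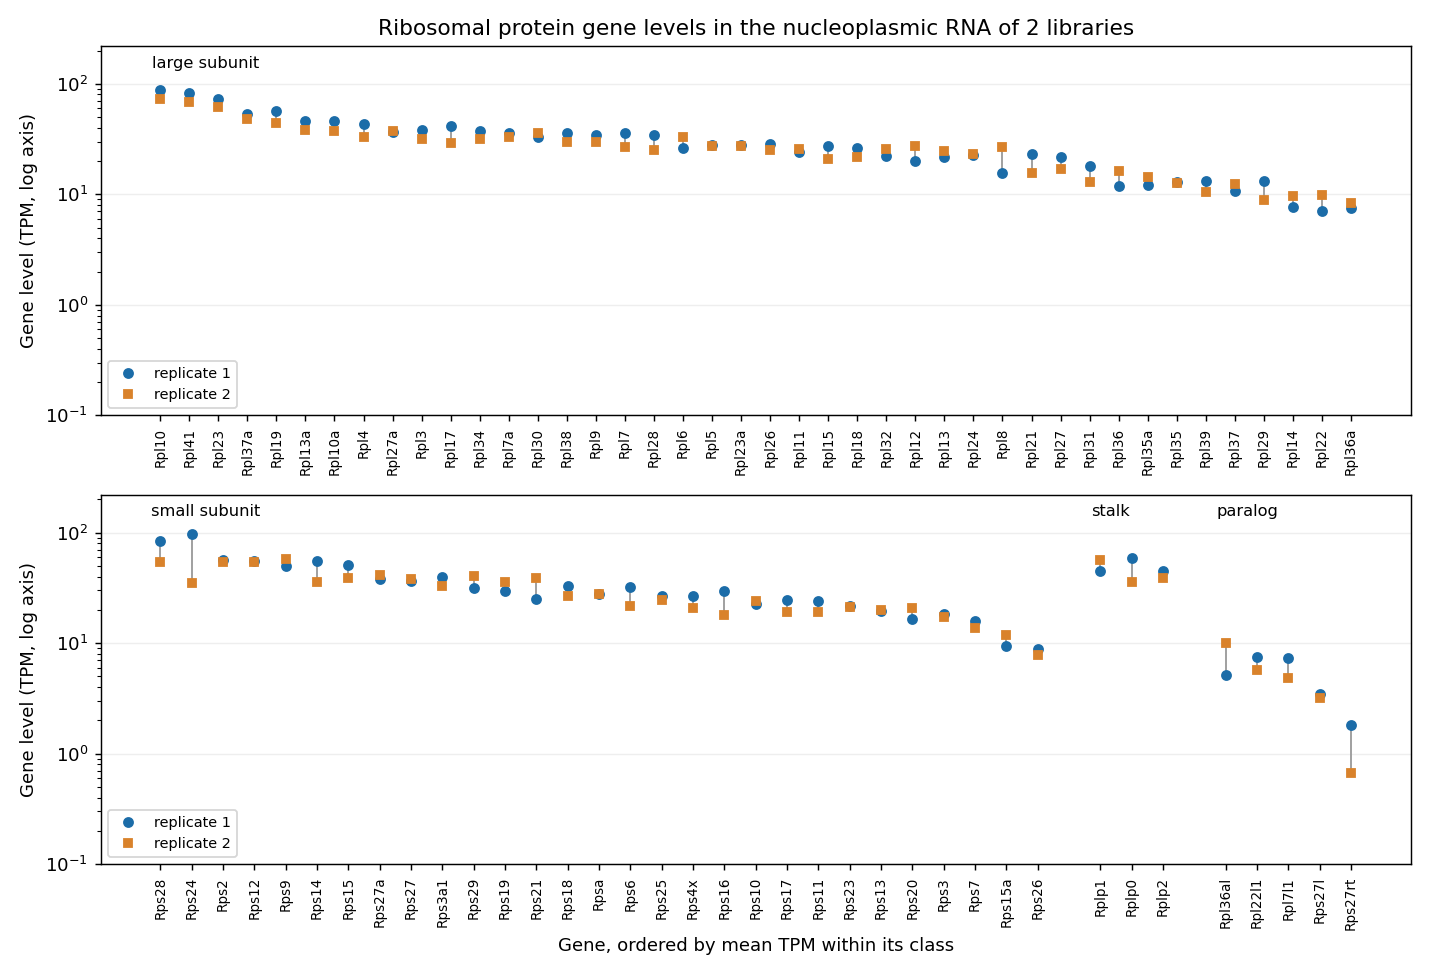
Gene level in TPM on a log axis for each ribosomal protein gene in replicate 1 (circles) and replicate 2 (squares), ordered by mean within the large subunit, small subunit, stalk and paralog classes. Core genes lie near a common level, from Rpl10 at 88.0 and 73.3 TPM to Rpl36a at 7.57 and 8.34 TPM, while the paralogs lie lower; 3 paralogs at 0 and 3 core genes not reported here are not drawn.

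In the large subunit, the highest gene by mean TPM was Rpl10 (chrX:74270812-74273135, plus strand), whose protein joins the subunit late in its maturation, at 88.0 and 73.3 TPM in replicates 1 and 2 (80.6 ± 10.4). Rpl41, which encodes a very short and basic peptide, was at 83.0 and 67.8 TPM. The second deposited quantification put Rpl10 at 30.1 and 9.95 TPM, below Rpl41 at 57.5 and 16.3 TPM, so the first rank of Rpl10 holds in the first quantification only. Rpl23 was at 72.9 and 61.4 TPM. Its protein is 1 of 3 in the family, with Rpl5 and Rpl11, best known for binding the p53 regulator Mdm2. Rpl37a was at 52.8 and 48.0 TPM. For these 4 genes the replicates differed by less than the step from the family median.

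At the low end of the large subunit stood Rpl36a at 7.57 and 8.34 TPM, on 27.1 and 93.9 counts. Rpl22 was at 7.04 and 9.88 TPM; its protein is not essential for the ribosome and has known roles in lymphocyte development. Rpl14 was at 7.61 and 9.68 TPM, and Rpl29 at 13.3 and 8.94 TPM. The order of these 4 genes changed between the replicates, so they cannot be ranked against one another.

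Rpl5 and Rpl11, which carry an rRNA of the large subunit into the ribosome and bind Mdm2 when assembly fails, stood close together. Rpl5 was at 27.9 and 27.3 TPM and Rpl11 at 24.3 and 25.7 TPM, both near the family median. Rpl3, at the peptidyl transferase centre, was at 38.5 and 31.9 TPM. Rpl10a, of the mobile stalk at the exit side, was at 45.8 and 37.1 TPM. Rpl12, at the base of the factor-binding stalk, was at 20.0 and 27.2 TPM. Rpl13a, which in myeloid cells can leave the ribosome to silence inflammatory mRNAs, was at 45.9 and 37.9 TPM.

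In the small subunit the replicates parted at the top. Rps24 had the highest value of any core gene, 97.9 TPM, in replicate 1 but 35.0 TPM in replicate 2 (66.5 ± 44.5), so its rank rests on replicate 1. Rps28 was at 83.7 and 54.4 TPM. Rps2, at the mRNA entry side, was at 57.0 and 54.5 TPM, and Rps12 at 55.8 and 53.8 TPM; both differed little between the replicates. Rps12 was at 14.0 and 3.72 TPM in the second quantification, however. Protein-coding genes in general were lower there, by a median log2 difference of -0.32 in replicate 1 and -1.73 in replicate 2. Rps12 was lower beyond that shift, as given below, so its level depends on the quantification.

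The lowest small-subunit genes were Rps26 at 8.83 and 7.83 TPM and Rps15a at 9.38 and 11.9 TPM. Rps26 lies at the mRNA exit channel. Rps7 was at 15.9 and 13.8 TPM. Rps19, the gene most often mutated in Diamond-Blackfan anaemia, was at 29.9 and 36.0 TPM. Rps27a, made as a fusion with ubiquitin, was at 38.2 and 41.4 TPM, and Rpsa, also known as the laminin receptor precursor, at 28.0 and 27.9 TPM.

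The stalk genes recruit translation factors to the large subunit. Rplp1 was at 45.3 and 56.5 TPM, Rplp0, the anchor of the stalk, at 59.2 and 35.6 TPM, and Rplp2 at 45.3 and 38.9 TPM. All 3 lay above the family median in both libraries, and their own order differed between the libraries. Of ribosomal genes outside the naming pattern, Rack1, a scaffold on the small subunit, was at 28.6 and 26.0 TPM, and Fau, a fusion with a ubiquitin-like protein, at 87.8 and 51.6 TPM, which is within the range of the core genes.

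The paralogs were lower as a class, with a median of 2.64 and 1.92 TPM. Rpl3l, known from muscle, and Rpl10l and Rpl39l, known from testis, had 0 counts in both libraries, which allows up to 0.290 counts per 1000000 (CPM) in replicate 1 and 0.146 in replicate 2 (3 counts of the total). Rpl36al was at 5.17 and 10.1 TPM, beside 7.57 and 8.34 TPM for its partner Rpl36a. Rpl22l1 was at 7.53 and 5.69 TPM, beside 7.04 and 9.88 TPM for Rpl22. In these 2 pairs paralog and partner crossed between the replicates, so neither was the higher one beyond the spread. Rpl7l1 was at 7.26 and 4.88 TPM, below Rpl7 at 36.2 and 26.9 TPM. Rps27l, a p53 target, was at 3.45 and 3.18 TPM on 12 and 35 counts, below Rps27 at 36.7 and 37.7 TPM.

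Coding sequences show which of these pairs reads can separate. The first 60 coding bases of Rps27 and its paralogs, and of Rpl36a and Rpl36al, are printed from the GENCODE M21 transcripts with the paralog's differing bases in capitals.
Rps27: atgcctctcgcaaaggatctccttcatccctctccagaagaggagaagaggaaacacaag
Rps27l: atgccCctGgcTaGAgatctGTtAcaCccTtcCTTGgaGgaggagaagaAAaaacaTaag
Rps27rt: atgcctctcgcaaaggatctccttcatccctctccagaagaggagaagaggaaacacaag
Rpl36a: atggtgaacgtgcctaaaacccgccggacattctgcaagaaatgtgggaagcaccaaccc
Rpl36al: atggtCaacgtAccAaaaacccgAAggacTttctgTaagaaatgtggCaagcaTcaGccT

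Rps27rt has the same coding sequence as Rps27 over all 252 bases, and the 2 transcripts share an unbroken run of 341 bases. Its 3.19 and 4.31 counts (1.83 and 0.67 TPM) are therefore uncertain and cannot be told apart from reads of Rps27. Rps27l differs from Rps27 at 18 of the first 60 bases, is 76.2% identical over the coding sequence, and shares no run above 11 bases. Rpl36al and Rpl36a are 87.7% identical with a longest shared run of 24 bases. Among the silent paralogs, Rpl10l is 84.7% identical to Rpl10, Rpl39l 85.0% to Rpl39 and Rpl3l 73.1% to Rpl3. The lowest identity was 52.7%, between Rpl7l1 and Rpl7.

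Processed pseudogenes are retrotransposed copies, numerous for this family. Of 300 rows named as a pseudogene of a ribosomal protein gene, 204 had 0 counts in both libraries and 26 reached 1 TPM in both. The rows were chosen by symbol, so copies under other names were not counted. A few of the rows, among them Rpl10-ps3 and Rps12-ps3, are typed protein_coding. Together the 300 rows held 570 and 1072 counts, or 3.58% and 2.49% of the counts of the family. The second quantification assigned them 2126 and 3056 counts, or 7.51% and 5.92%, a comparison added after the values were seen. Among parents of at least 1 TPM on average, 1 copy stood above its parent in both libraries and 1, Rpl36a-ps4, in replicate 1 only. These were picked out after their values were seen. The former, Rpl36-ps2, was at 37.1 and 31.5 TPM on 40 and 137 counts, while Rpl36 was at 11.96 and 16.28 TPM on 22 and 109 counts. In the second quantification Rpl36 was at 43.1 and 10.05 TPM and Rpl36-ps2 at 46.8 and 8.70 TPM, so the split between them depends on the quantification.

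Set beside other housekeeping complexes, core ribosomal protein genes had a median of 28.0 and 26.9 TPM. Translation factors and a few other genes known for TOP mRNAs were near, at 28.5 and 20.7 TPM over 13 genes. Proteasome subunits were at 9.53 and 7.16 TPM over 49 genes, nuclear genes of the respiratory chain and ATP synthase at 5.30 and 4.26 TPM over 77 genes, and ribosome biogenesis factors at 5.37 and 3.82 TPM over 38 genes. Mitochondrial ribosomal proteins, the counterpart complex in that organelle, were at 2.44 and 1.55 TPM over 78 genes. Among genes of at least 1 TPM, the core genes were also the least dispersed of these 6 lists: the ratio of the 90th to the 10th percentile was 4.45 and 4.03, against 5.25 and 5.48 for the mitochondrial ribosome and 9.54 and 8.80 for the proteasome. With the paralogs included, the family's ratio was 6.32 and 4.81, above that of the mitochondrial ribosome in replicate 1.

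**Figure D2:**
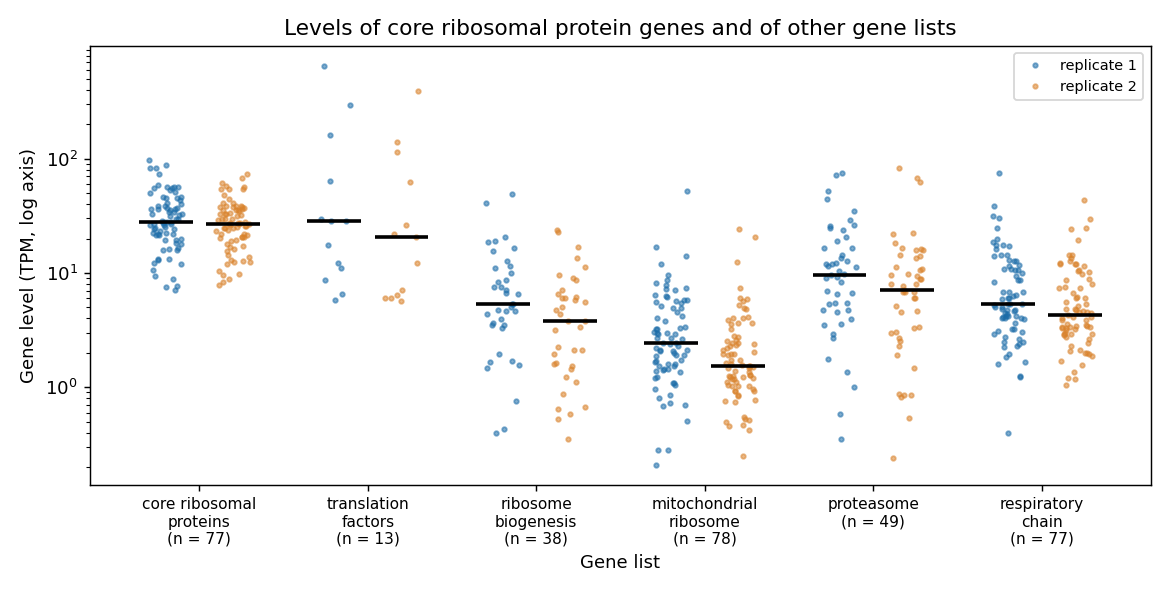
Gene level in TPM on a log axis for core ribosomal protein genes and 5 other gene lists in each replicate, with 1 point a gene and a black bar at the median over all genes of the list. The core genes have medians of 28.0 and 26.9 TPM and the mitochondrial ribosomal proteins 2.44 and 1.55 TPM; 5 values at 0 are not drawn.

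A part of the RNA of these genes was assigned to annotated isoforms that are not typed protein_coding. Summed over the family's 502 isoforms, protein_coding isoforms held 71.5 ± 2.0% of the transcript TPM, retained_intron isoforms 19.8 ± 0.48%, processed_transcript isoforms 6.03 ± 0.82% and nonsense_mediated_decay isoforms 2.71 ± 0.73% (SD, n = 2). The 3 latter types are called noncoding below. Reads were assigned to annotated isoforms, so in this nuclear RNA reads of transcripts not yet spliced cannot be told apart from reads of such isoforms. Of the 85 genes, 72 had such an isoform and a mean of at least 1 TPM. Their median noncoding share was 24.3% in replicate 1 and 27.3% in replicate 2. Over all protein-coding genes it was 31.0% and 33.7%, and over other protein-coding genes of like effective length 39.8% and 38.6%. Noncoding isoforms held over 50% in both libraries in 15 of the 72 genes (20.8%), against 20.9% of all 7677 protein-coding genes that passed the same filter. The family's share of such genes is thus near that of all protein-coding genes. It is below that of other protein-coding genes of like effective length, where 402 of 1388 (29.0%) were over 50% in both libraries. Neither difference was tested.

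**Figure D3:**
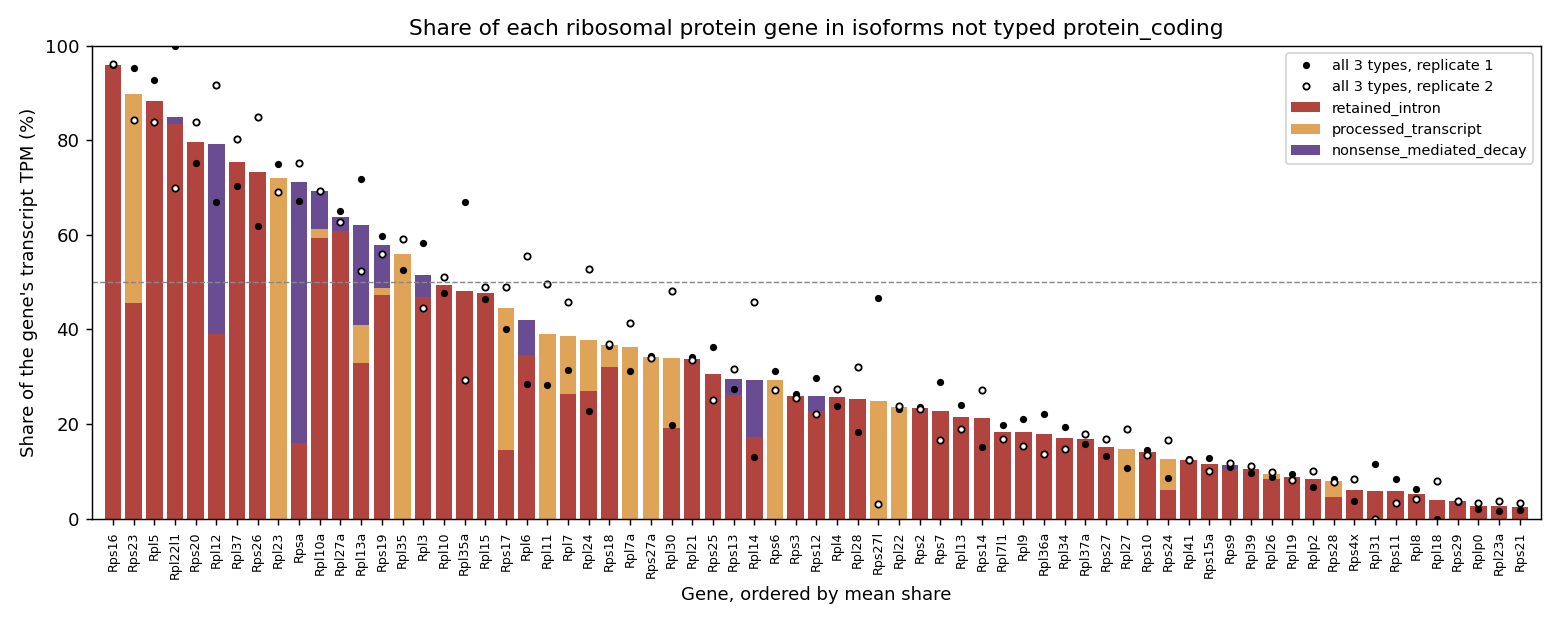
Bars give the mean share of each gene's transcript TPM in retained_intron, processed_transcript and nonsense_mediated_decay isoforms over both replicates, for 69 of the 72 genes that passed the filter, with the summed share of each replicate as points. The order runs from Rps16, at 96.0% and 96.1%, to genes below 5% in both replicates; the dashed line is at 50%.

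The genes ranged over the whole scale, from Rps16 at 96.0% and 96.1% to Rps21 at 1.74% and 3.21%. After Rps16, the highest mean shares were in Rps23 (95.4% and 84.4%), Rpl5 (92.7% and 83.9%), the paralog Rpl22l1 (100% and 70.0%), Rps20 (75.3% and 83.9%) and Rpl12 (66.9% and 91.7%). At the other end, Rplp0 was at 2.01% and 3.35%, Rpl23a at 1.59% and 3.70%, and Rps29 at 3.54% and 3.74%. Over the 72 genes the shares of the 2 libraries had a Spearman correlation of 0.85, as a description; the libraries share the annotation and the isoform model.

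Retained_intron isoforms led the noncoding part in 57 of the 72 genes, processed_transcript isoforms in 12 and nonsense_mediated_decay isoforms in 3. The leading type was not counted over other genes. The family's median share in retained_intron isoforms was 17.4% and 17.0%, near the 16.3% and 19.3% of all protein-coding genes. Over other protein-coding genes of like effective length it was 18.1% and 21.5%. In Rps16 a retained_intron isoform, Rps16-203, held 87.6% and 57.1% of the gene's TPM, and Rps16-202 another 8.41% and 39.0%. Their sum was stable while the split was not. In Rpl10a the isoform Rpl10a-206 held 36.3% and 38.4%, and in Rpl3 the isoform Rpl3-204 held 31.2% and 25.6%. In Rpsa the leading isoform was one of nonsense-mediated decay, the pathway that degrades mRNAs with early stop codons: Rpsa-206 held 54.1% and 56.3%. The same type led in Rpl12 (Rpl12-201, 36.7% and 43.8%).

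Whole introns of the leading coding isoform could be placed inside an exon of 85 of the 176 retained_intron isoforms of the family or inside exons of other noncoding types. Over 49 genes the annotation gave 104 distinct introns of this kind, of the 361 in the leading coding isoforms. No level was required of the isoform, and Rps21-202, for example, was at 0 TPM in both libraries. The number therefore describes the annotation and not introns seen retained in this RNA. The 104 introns had a median length of 262 bases, against 366 bases for all 361. Of the 104, 20 hold an annotated snoRNA. Introns with a snoRNA were not counted over all 361, so no excess can be read from this number. All but 1 of the 104 begin with GT and end with AG. The intron starts below, from isoforms among the named genes, give the last exon bases and the first intron bases of the gene's strand, with the first 2 intron bases in capitals; Rps27a shows the exception, GC.
Rpl10 intron 2: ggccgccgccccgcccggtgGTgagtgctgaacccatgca
Rpl10 intron 5: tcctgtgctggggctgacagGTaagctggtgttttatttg
Rpl10a intron 3: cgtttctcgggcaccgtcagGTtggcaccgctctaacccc
Rpl3 intron 3: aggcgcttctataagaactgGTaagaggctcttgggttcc
Rps16 intron 3: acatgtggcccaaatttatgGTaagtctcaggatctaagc
Rps27a intron 2: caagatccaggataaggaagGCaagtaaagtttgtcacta

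In the mm10 build of the files, Rpl10 intron 2 (chrX:74271025-74271659, 635 bases) is kept in Rpl10-207 at 15.97 and 13.07 TPM, and intron 5 (chrX:74272318-74272671, 354 bases), which holds Snora70, in Rpl10-209 at 8.39 and 8.06 TPM. Rpl10a intron 3 (chr17:28329048-28329373, 326 bases) is kept in Rpl10a-206 at 16.7 and 14.3 TPM. Rpl3 intron 3 (chr15:80081032-80081614, 583 bases) is kept in Rpl3-204 at 12.02 and 8.18 TPM. Rps16 intron 3 (chr7:28352274-28352362, 89 bases) is kept in Rps16-202 at 2.48 and 6.95 TPM. Rps27a intron 2 (chr11:29546789-29547205, 417 bases) is kept in Rps27a-205, typed processed_transcript, at 6.35 and 6.14 TPM. These levels belong to the isoform as a whole and include reads over its exons.

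Short lists were made of genes known for unproductive splicing or for a disease link. The 3 genes listed for autoregulated splicing, Rpl3, Rpl10a and Rpl12, had a median noncoding share of 66.9% and 69.3%. That list need not hold every such gene. Within it, Rpl10a was at 69.3% in both replicates, and Rpl3 at 58.4% and 44.5%. The 9 Diamond-Blackfan anaemia genes listed had a median of 40.1% and 49.0%; among them Rps19 was at 59.8% and 56.1%, Rpl11 at 28.3% and 49.7%, and Rps24 at 8.55% and 16.6%. Both lists are short and were described without a test.

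Genes that host snoRNAs had a higher median noncoding share than the others. Inside 30 of the 85 genes lie 58 annotated snoRNAs on the same strand; 27 of the 30 passed the isoform filter. The median noncoding share of these 27 was 31.1% and 48.2%, against 19.5% and 17.8% for the 45 genes without one. In the second quantification it was 56.5% and 48.0%, against 29.3% and 25.9%. Over 50% in both libraries was reached by 9 of the 27 hosts and 6 of the 45 others, against 20.9% of all protein-coding genes. The direction was the same in both libraries, but the 2 values of the hosts lay further apart than the gap in replicate 1. This difference between groups of genes was not tested.

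A part of the hosts' noncoding RNA was assigned to annotated isoforms that still contain the snoRNA. A snoRNA sequence was present in 29 noncoding isoforms of 21 genes. These held 22.0% and 21.5% of the hosts' noncoding TPM, and 38.1% and 33.4% of the hosts' noncoding counts. Without them the median noncoding share of all 72 genes, hosts and others, was 20.3% and 24.1%, against 24.3% and 27.3% with them. As rows of their own, 44 of the 58 snoRNAs had 0 counts in both libraries, and all 58 together had 54.8 and 759 counts. The labelled size range of the libraries was 250-400, above the length of most snoRNAs; its part in these counts was not tested. Snord15a and Snord15b in Rps3 took 36.9 and 413 of these counts, and the 3 snoRNAs in Rpsa 17.0 and 270.0, each named after its values were seen.

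Between the replicates, ribosomal protein genes stood apart from the average gene. The raw log2 TPM ratio of replicate 2 over replicate 1 had a median of -0.69 over all 11380 genes of at least 1 TPM, and of -0.18 over 82 ribosomal protein genes. Relative to all genes, their median was thus 0.51 higher in replicate 2, and 77 of 82 lay above the median of all genes. Past 2-fold, 13 of 82 were higher in replicate 2, against 5.11% of all genes, and 0 of 82 were lower, against 4.79%. Of 1722 other protein-coding genes of the family's effective lengths, 167 were past 2-fold higher and 92 lower on the same scale. No test was run, since there is 1 library a side. With TMM factors on counts the number higher fell to 7 of 82, against 5.47% of all genes, and the median was 0.60. In the second quantification 5 of 81 were higher, against 5.32%, which is near the background. None of the family was past 2-fold lower under these settings. Of all genes, 2.95% were lower with TMM factors, 3.14% with median-of-ratios size factors and 9.66% in the second quantification. When the centre was the median of genes of like length, 6.63% were lower. That last share also counts all genes, not only those of like length. Malat1 and the mitochondrially encoded transcripts were higher in replicate 1, as given above. Centring on the median of all genes removes any shift of the TPM scale that is common to all genes. The libraries also differ in input and depth, whose part in the difference was not tested.

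**Figure D4:**
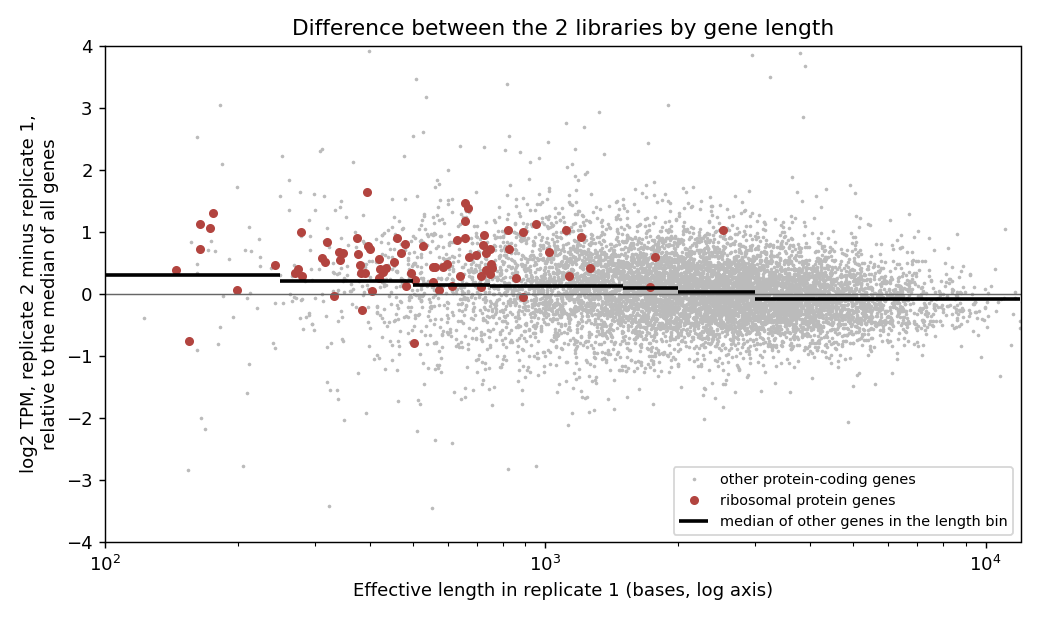
Log2 TPM difference between replicate 2 and replicate 1, relative to the median of all genes, against effective length in replicate 1 on a log axis, for other protein-coding genes (grey) and ribosomal protein genes (red), with black bars at the median of the other genes in each length bin. The red points lie mostly above the bars, with a median of 0.51; 10 of 9065 other genes lie outside the axes and are not drawn.

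Gene length moved with this ratio, and the family lay above other genes of its length. Other protein-coding genes of the family's effective lengths, 173 to 1199 bases, had a median of 0.15 over 1729 genes, and 60.2% lay above the median of all genes. Genes of 250 to 500 bases had a median of 0.21, against 0.51 for the 32 ribosomal protein genes in that bin, and genes of 500 to 750 bases 0.15, against 0.47 for 26. In each of the 7 length bins that held ribosomal protein genes their median was above that of the others, though 2 bins held only 2 genes and 1 gene. The respiratory chain had a median of 0.36, the proteasome 0.22, TOP-bearing translation factors 0.21, the mitochondrial ribosome 0.03 and biogenesis factors -0.07.

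At 100 counts or more in each library, 61 genes passed, and 7 of them were past 2-fold higher in replicate 2, against 1.41% of all genes so counted; 0 were lower, against 1.76%. Among these Rpl8 had the largest relative log2 ratio, 1.47, from 15.7 and 26.9 TPM on 116 and 619 counts. Rpl12 was at 1.13, from 20.0 and 27.2 TPM, but at 0.53 with TMM factors on counts. Rps15a was at 1.04 on the TPM scale, while with TMM factors on its 267 and 480 counts it was at -0.037. Its effective length was 2534 bases in replicate 1 and 1186 in replicate 2. Its isoform of 5179 bases, Rps15a-204, held 46.9% of the gene's TPM in replicate 1 and 18.6% in replicate 2. At the low end, Rps24 was at -0.79, Rplp0 at -0.042 and Rps16 at -0.034. With TMM factors on counts, Rps24 was at -0.13, and Rplp0 and Rps16 were above 0, at 0.12 and 0.25. The effective length of Rps24 was 502 bases in replicate 1 and 786 in replicate 2.

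For Rps24 the isoforms moved with the gene level. The short coding isoform Rps24-201 was at 71.4 and 15.97 TPM, and the longer Rps24-210 at 10.5 and 7.58 TPM, so Rps24-201 held most of the difference between the libraries. Across the 77 core genes the TPM of the 2 libraries had a Spearman correlation of 0.88 and a Pearson correlation of 0.89 on log2 values; the points share the 2 libraries.

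A second quantification of the same libraries, which gives estimated counts and TPM per transcript, placed the family somewhat lower. Protein-coding genes in general had lower TPM in it, by a median log2 difference of -0.32 in replicate 1 and -1.73 in replicate 2. Relative to this shift, the family's median log2 difference of the second from the first quantification was -0.21 in replicate 1 and -0.36 in replicate 2. On counts in place of TPM the mean over both libraries was -0.028. Over 2-fold lower in both libraries were 3 of 81 genes, against 0.131% of protein-coding genes, and over 2-fold higher was 1, against 4.75%. The 3 lower genes were Rpl10 (-1.23 and -1.15), Rps12 (-1.67 and -2.12) and Rpl12 (-1.49 and -1.45), and the higher one was Rpl36. Rps7 (1.21 and 0.65), Rpl35a (1.11 and 0.57), Rpl24 (1.21 and 0.11) and Rps15a (1.12 and 0.08) were also above, though past 2-fold in replicate 1 only, while Rpl10a was below in both (-0.55 and -0.88).

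**Figure D5:**
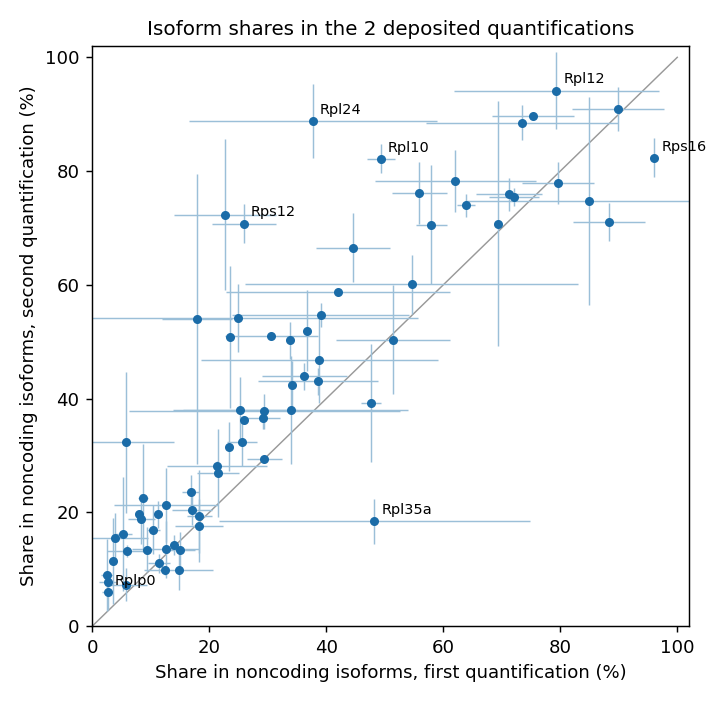
Noncoding isoform share of the 72 genes in the first and the second quantification, as means over both replicates with bars for the SD (n = 2), and the line of equality. Most genes lie above the line, as Rpl10 does at 49.3% and 82.1%, while Rps16 at 96.1% and 82.3% lies below it.

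Noncoding shares were higher in the second quantification, with a family median of 38.5% and 38.7%, and so were those of all protein-coding genes, 46.2% and 44.6%. The order of the genes was kept in part: the Spearman correlation of the 2 sets of shares over the 72 genes was 0.88, from the same libraries. Rpl10, at 47.6% and 51.0% in the first quantification, was at 82.1 ± 2.5% in the second, and Rps12 moved from 29.8% and 22.0% to 70.8 ± 3.5%. Rpl5 was at 71.1 ± 3.4% and Rps16 at 82.3 ± 3.4%, still high in both. Rplp0 stayed low at 6.06 ± 3.3% and Rpl41 at 9.82 ± 0.74%.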

How the data were processed

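Both libraries carry 2 deposited quantifications against mm10 with GENCODE annotation M21, per the authors' readme files; for program names and versions: not given in the sources used here. The first is a gene and a transcript table with expected counts (estimated, not whole, from reads shared among isoforms), TPM and a posterior SD of the count, as the authors deposited them. The second is a transcript table with estimated counts and TPM, per the file headers; gene values are sums over its transcripts. Spike-in and numeric rows were left out of totals (spike-ins: 0.504% and 0.0967% of counts).

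The members and lists were chosen with earlier results of these data known. Named genes are, per class, the 4 highest and 4 lowest by mean TPM, all paralogs, the 6 highest and 4 lowest noncoding shares, the 4 most extreme replicate ratios and quantification differences at 100 counts or more, and a fixed set. Ratios used genes of mean TPM of at least 1 and are log2 values centred on the median of all genes. Shares are per gene from transcript TPM. TMM factors came from edgeR 4.0.16 on rounded expected counts; all else was computed in Python 3.11.15. Paralog coding sequences were aligned globally with Biopython 1.88. A few of the genes so named are not reported here. No test was run: there is 1 group. The scripts were tested on simulated data. Alternatives were other scales, filters, quantifications and each replicate left out.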

Additional observations from a re-analysis of the deposited data

How the results depend on the processing

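The median level of 26.3 TPM became 13.0 TPM in the second quantification, where protein-coding genes in general were also lower, as given above. It became 127 when TPM were rescaled over nuclear protein-coding genes, 18.4 CPM on counts and 27.5 TPM for core genes only. The median noncoding share of 25.8% became 38.6% in the second quantification, 28.0% on expected counts, 17.2% with retained_intron isoforms alone, and 22.2% without isoforms that hold a snoRNA, a setting added after seeing the data. The 15 genes with over 50% in noncoding isoforms became 24 in the second quantification. All protein-coding genes were not counted under that setting, and their median noncoding share was also higher there, as given above. The 24 therefore cannot be read as a result about the family. The median replicate ratio stayed between 0.47 and 0.60 under all scalings tried but one: centred on other protein-coding genes of like effective length, also added after seeing the data, it was 0.37. The 13 genes past 2-fold higher in replicate 2 (5.11% of all genes) became 7 with TMM factors (5.47%) and 7 with median-of-ratios size factors (5.11%). They became 5 in the second quantification (5.32%) and 5 centred on the median of genes of like length (3.74%, also of all genes). Under each of these settings 0 were lower. On counts, Rps15a reversed to -0.037 with TMM factors and -0.067 with size factors. The count share of 0.182% became 0.263% of protein-coding counts, and the median difference between quantifications of -0.29 became -0.028 on counts. The cause of these changes was not tested. Leaving out each replicate in turn gave 25.7 to 26.9 TPM, 81 to 82 genes at 1 TPM, shares of 24.3 to 27.3%, and 17 to 20 genes over 50%. For the last of these, all protein-coding genes were not counted in each replicate alone. No paired analysis was possible because there is 1 group. At the depth of replicate 1, genes below about 100 counts, which include Rpl36a and all paralogs but Rpl7l1, carry a wide counting error.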
